A study of Mus musculus with 12 samples.

Results

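The Serpina genes encode clade A serpins, secreted glycoproteins that the liver releases in quantity into plasma. Most are suicide inhibitors: a target protease cleaves an exposed reactive loop, the loop inserts into the body of the serpin, and the protease is trapped. A few have lost inhibition and carry hormones instead. In the mouse the single human genes for alpha-1-antitrypsin and alpha-1-antichymotrypsin correspond to tandem arrays of paralogues, Serpina1a to Serpina1f and Serpina3a to Serpina3n. The members described here are the rows of the deposited gene table whose symbol is Serpina followed by a number, of any biotype. There were 29 such rows among 43346, and 23 of them were annotated as protein-coding. On the mm10 build 28 of them lay in one cluster on chromosome 12, between bases 103614786 and 104414329, and Serpina7 lay on the X chromosome. One symbol occurred in 2 rows: the coding gene Serpina11 and an overlapping processed transcript, called Serpina11-nc here.

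RNA from mouse liver was sequenced in 12 libraries, 3 in each of 4 groups. Wild-type mice were S1pr1 loxP/loxP littermates without Cre, and knockout mice were S1pr1 loxP/loxP;Lyz2-Cre/0, in which Cre recombinase is made in myeloid cells, so both genotypes carry the floxed alleles and hepatocytes are not the targeted cells. From 12 weeks of age the animals were kept for 24 weeks on chow (CD) or on the FFC diet, which is high in fructose, cholesterol and fat. No label says more about the animal behind each library, so the tests measure the spread between these libraries. Levels are CPM, counts scaled to a library of fixed size and further scaled by edgeR's normalization factors, and the values of a group are given in the order of the replicate labels: 2, 3 and 4 for both wild-type groups, 1, 2 and 3 for knockout on chow, and 1, 4 and 7 for knockout on FFC.

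Library totals ran from 18873092 to 25855609 counts on chow and from 25773607 to 31154930 on FFC, and the scaling factors lay at 0.759 to 0.961 on chow and 1.09 to 1.25 on FFC. S1pr1 itself stood at 27.3 to 44.4 CPM over all 12 libraries and did not pass the test between genotypes on either diet, with log2 differences of 0.11 on FFC and 0.02 on chow. Whole liver holds many cell types outside the Lyz2-Cre lineage, and this level does not check the deletion in myeloid cells.

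Of the 29 rows, 26 passed the filter on low counts. Serpina1f, Serpina3d-ps and Serpina3e-ps did not, and Serpina1f had a single count over all libraries. After division by gene length, Serpina3k and Serpina1e led the family in wild-type liver on chow, at 6121 ± 1167 and 5263 ± 1854 CPM per kb (SD, n = 3). These 2 levels did not differ beyond their spread. Serpina1d, Serpina1c and Serpina1b followed at 3067 ± 225, 2995 ± 49.5 and 2374 ± 358 CPM per kb, then Serpina1a at 1478 ± 168 and Serpina3m at 567 ± 37.6. Serpina6, Serpina3n and Serpina10 came next at 242 ± 74.0, 204 ± 4.35 and 72.0 ± 7.58 CPM per kb, and every other row lay lower. Together the 29 rows took 3.66% ± 0.466 of all counts in wild type on chow and 1.50% ± 0.0214 on FFC, against 4.21% ± 0.717 and 2.04% ± 0.309 in the knockout (SD, n = 3).

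Most of the abundant members were lower on FFC than on chow in both genotypes. In wild type, edgeR's quasi-likelihood test at an adjusted p under 0.05 called 10 members lower and 3 higher, and 13 did not pass. Over all 16283 tested genes it called 8.03% lower and 8.76% higher. In the knockout 15 members were lower and 1 was higher, where 12.8% of all tested genes were lower and 13.7% higher. Levels of the diets did not overlap for 15 members that were lower and 4 that were higher on FFC in wild type, where 20.1% and 25.0% of all tested genes did so, and for 13 and 1 in the knockout, where 16.1% and 23.4% did so. The split of calls depended on the scaling: with gene length offsets 13 members were lower and 2 higher in wild type, beside 2445 and 897 of all genes, and 15 and 0 in the knockout, beside 3318 and 1065. Without scaling factors 8 members were lower and 3 higher in wild type, beside 429 and 3960 of all genes, and 10 and 3 in the knockout, beside 746 and 5863. The median member changed by -0.87 (log2) in wild type and -1.16 in the knockout, beside 0.04 and 0.09 over all tested genes. All 10 members called lower in wild type were among the 15 called lower in the knockout. These 2 comparisons share no library, but they were fitted in one model with a common estimate of the spread and a common scaling. With the knockout groups fitted alone, Serpina3i of these 10 was not called there (adjusted p = 0.0522, edgeR). Markers of hepatocytes, the main source of these proteins, moved with them: 8 of 9 tested markers fell in each genotype, with medians of -0.92 and -0.78, and none of the 9 was at 0 in all libraries. Summed hepatocyte marker levels were 148156 to 214826 CPM in wild type on chow and 71456 to 92617 CPM on FFC. In the knockout the sums were 134525 to 202898 CPM on chow and 93063 to 109774 CPM on FFC. Macrophage markers went the other way, with 6 of 6 higher in each genotype and summed levels of 175 to 297 CPM on chow and 403 to 542 CPM on FFC. Endothelial markers were higher for 5 of 5 in wild type and 4 of 5 in the knockout, and stellate cell markers for 5 of 6 and 2 of 6. Their part in the Serpina changes was not tested. In bulk tissue fewer hepatocytes and less Serpina RNA per hepatocyte cannot be told apart.

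**Figure D1:**
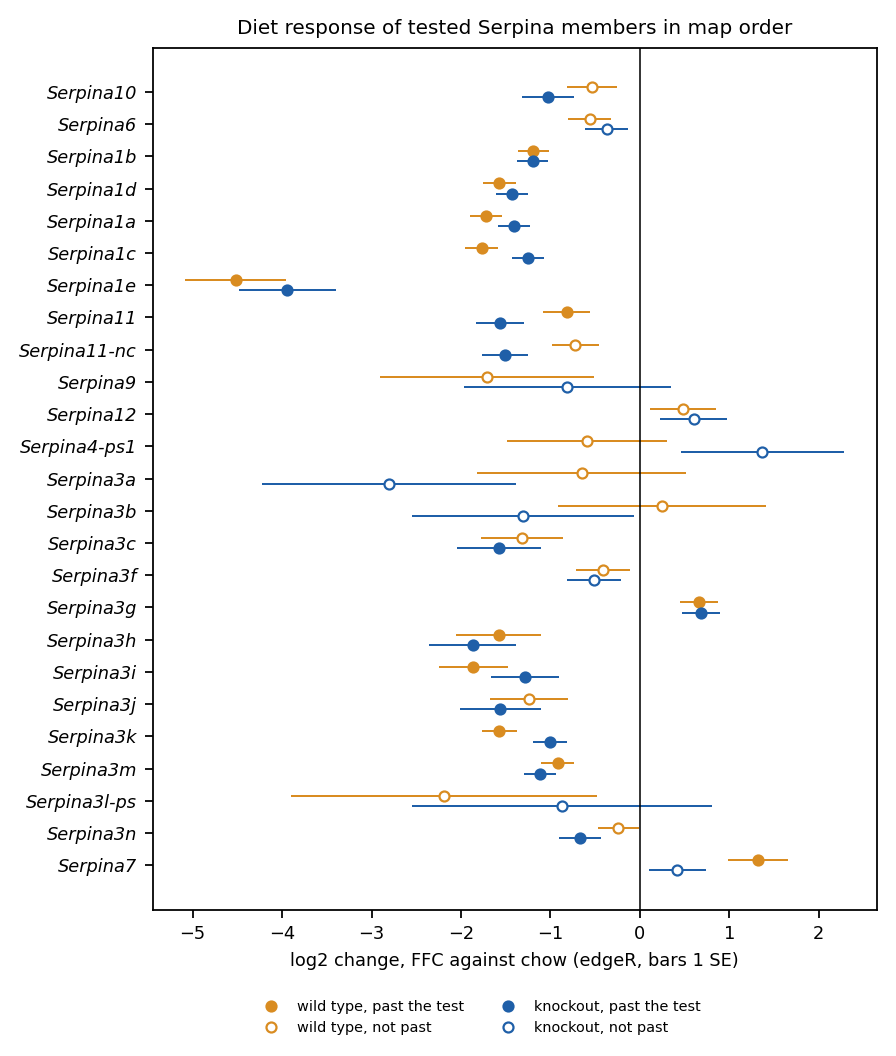
The log2 change from chow to FFC (x axis, edgeR, bars 1 SE) is plotted for the tested members in map order, with Serpina7 from the X chromosome last and Serpina5 left out because its wild-type chow libraries were all at 0. Filled points passed the test; Serpina1e lies farthest left in both genotypes, at -4.52 and -3.94, and Serpina3g is the one member filled on the right in both.

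Serpina1a to Serpina1e encode the mouse counterparts of human alpha-1-antitrypsin, which inhibits neutrophil elastase and related serine proteases. Which protease each of the 5 inhibits was not measured here, and their reactive-site codons, given below, differ. Their coding sequences are 96.3 to 98.5% identical to each other. Among 60-base coding windows without gaps, the one with the most differing positions was picked. It lies in the stretch that encodes the reactive loop, whose reactive-site residue sets which protease is caught. In it 18 of 60 positions differ (30.0%), against 155 of 1308 alignment columns overall (11.9%). A window picked for its differences is high by choice, so these rates do not test where differences gather. They are also unlike measures. The 155 include columns where only Serpina1a has a base, as its coding sequence has 1308 bases and each of the others 1239. The windows below are those of this pick, read from GENCODE M21 transcripts on GRCm38, minus strand. They lie at chr12:103853757-103853816, chr12:103728324-103728383, chr12:103895094-103895153, chr12:103763762-103763821 and chr12:103947100-103947159 in the order printed. Each lies in 1 coding exon, and capitals mark the positions that differ between the 5 genes.
Serpina1a: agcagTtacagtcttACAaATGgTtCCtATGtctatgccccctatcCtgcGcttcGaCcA
Serpina1b: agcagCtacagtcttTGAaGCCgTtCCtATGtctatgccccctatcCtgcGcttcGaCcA
Serpina1c: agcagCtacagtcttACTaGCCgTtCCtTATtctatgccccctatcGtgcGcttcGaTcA
Serpina1d: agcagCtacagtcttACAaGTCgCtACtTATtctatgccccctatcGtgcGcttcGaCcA
Serpina1e: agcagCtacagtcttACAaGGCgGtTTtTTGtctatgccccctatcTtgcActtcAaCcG
The reactive-site codon was ATG in Serpina1a and Serpina1b, TAT in Serpina1c and Serpina1d, and TTG in Serpina1e. The near identity also bears on the counts: 79.3% of the 50-base windows of Serpina1c occurred in another gene, as did 57.6% for Serpina1a, 50.9% for Serpina1d, 34.6% for Serpina1e and 29.5% for Serpina1b. How the study's counting divided reads among such copies is not given in the sources used here, so the split between these 5 genes is uncertain.

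All 5 fell on FFC in both genotypes, with no overlap between diets, and the fitted change was largest for Serpina1e. Serpina1e stood at 5068, 10552 and 9911 CPM in wild type on chow and at 294, 328 and 491 CPM on FFC. In the knockout it stood at 16795, 18729 and 6728 CPM on chow and at 507, 626 and 1619 CPM on FFC. The lowest chow library was thus above the highest FFC library in each genotype, although chow libraries of one genotype differed widely. Its log2 change was -4.52 (SE 0.56, adjusted p = 0.000421, edgeR) in wild type, a 22.9-fold lower level, and -3.94 (SE 0.54, adjusted p = 0.000597) in the knockout, 15.4-fold lower.

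Serpina1c ran at 4021, 4151 and 4057 CPM in wild type on chow and at 1087, 1265 and 1229 CPM on FFC. The knockout values were 5886, 4820 and 5137 CPM on chow and 1884, 2075 and 2701 CPM on FFC. Its replicates lay close together, and the log2 change was -1.77 (SE 0.18, adjusted p = 1.16e-05, edgeR) in wild type and -1.25 (SE 0.18, adjusted p = 0.000165) in the knockout. Serpina1a ran at 2420, 3032 and 2670 CPM in wild type on chow and at 800, 760 and 901 CPM on FFC, and at 3512, 3570 and 3051 CPM against 1032, 1371 and 1400 CPM in the knockout. The drop was -1.72 (SE 0.18) and -1.41 (SE 0.18) on the log2 scale, 3.30-fold and 2.67-fold. Serpina1d moved from 3913, 4460 and 4453 CPM to 1247, 1548 and 1515 CPM in wild type, and from 5729, 5377 and 5559 CPM to 1640.5, 2050 and 2484 CPM in the knockout. Its changes were -1.57 (SE 0.18) and -1.43 (SE 0.18). Serpina1b, with 4908, 6634 and 5656 CPM on chow and 2290.5, 2606 and 2667 CPM on FFC in wild type, changed least among the 5, by -1.19 (SE 0.17). In the knockout Serpina1b went from 7635, 7643 and 7654 CPM to 2910, 3453 and 3608 CPM, a change of -1.20 (SE 0.17). Each of these 10 calls remained past the threshold with any one library of its comparison left out.

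**Figure D2:**
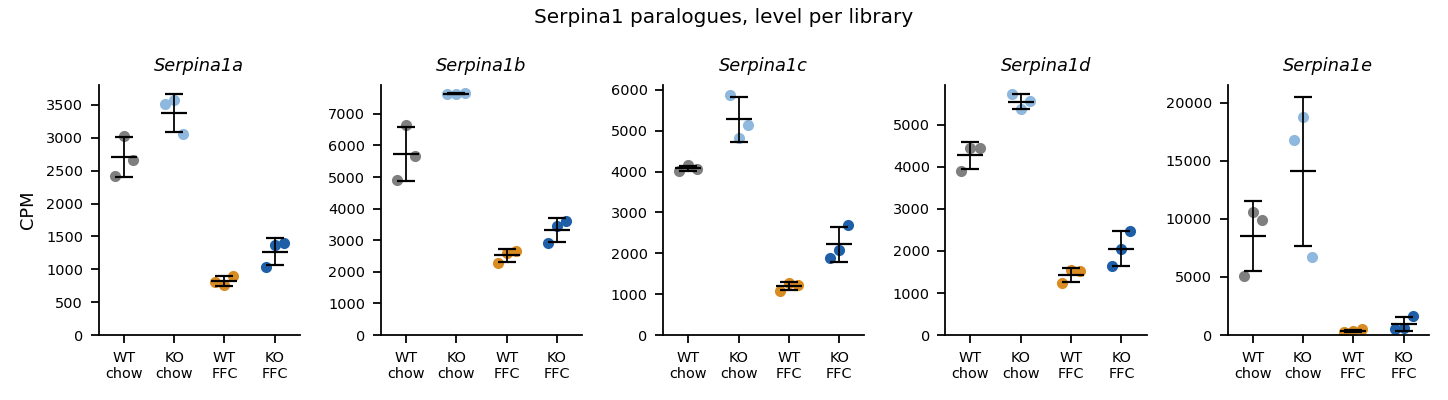
Levels of the 5 antitrypsin paralogues in CPM (y axis, linear from 0) are plotted by group; points are libraries, and bars are mean and SD of 3. In every panel the 3 FFC points of a genotype lie below its 3 chow points, and the Serpina1e points of chow range from 5068 to 18729 CPM.

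In the deposited counts the make-up of the antitrypsin pool differed between the diets, though the split of reads between the 5 genes is uncertain. After division by length, Serpina1e accounted for 25.6, 38.0 and 38.1% of the summed level of the 5 genes in wild type on chow and for 5.58, 5.42 and 7.81% on FFC. In the knockout its share was 43.5, 48.1 and 24.8% on chow and 6.75, 6.96 and 14.3% on FFC. The chow and FFC shares did not overlap in either genotype. The share of Serpina1b moved from 15.7% ± 1.05 to 28.8% ± 0.359 in wild type and from 15.1% ± 3.31 to 24.3% ± 2.64 in the knockout (SD, n = 3). The summed CPM of the 5 genes was 20329, 28829 and 26747 in wild type on chow and 5720, 6508 and 6803 on FFC, and in the knockout it was 39557, 40139 and 28130 on chow and 7973, 9574 and 11811 on FFC.

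**Figure D3:**
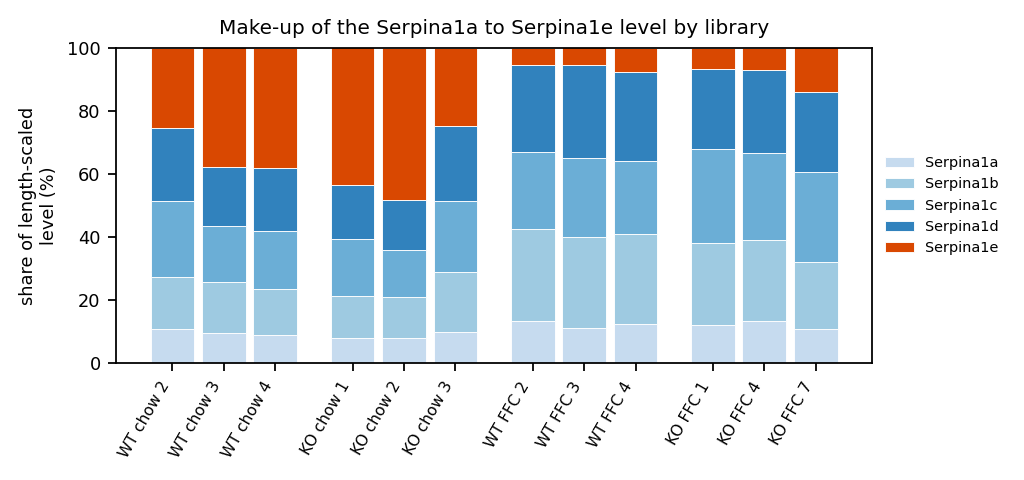
Each bar is 1 library and splits the length-scaled level of Serpina1a to Serpina1e into shares (y axis, percent). The Serpina1e share, in orange, spans 24.8 to 48.1% in the 6 chow libraries and 5.42 to 14.3% in the 6 FFC libraries.

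The promoters of these 5 genes were compared because the genes fell together and by different amounts. RefSeq promoters on GRCm38.p6 were found for 18 of the members. The 90 bases shown end between 0 and 62 bases before the start that RefSeq annotates, on the minus strand, at chr12:103863625-103863714, chr12:103738200-103738289, chr12:103904962-103905051, chr12:103773634-103773723 and chr12:103956960-103957049 in the order printed. Capitals mark the 10 positions that differ between the genes.
Serpina1a: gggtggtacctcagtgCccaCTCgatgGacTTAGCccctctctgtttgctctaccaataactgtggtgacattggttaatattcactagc
Serpina1b: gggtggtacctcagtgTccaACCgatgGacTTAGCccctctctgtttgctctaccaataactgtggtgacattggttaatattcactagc
Serpina1c: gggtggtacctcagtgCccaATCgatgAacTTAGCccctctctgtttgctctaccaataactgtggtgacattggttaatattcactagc
Serpina1d: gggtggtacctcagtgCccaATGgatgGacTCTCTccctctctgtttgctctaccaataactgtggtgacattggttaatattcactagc
Serpina1e: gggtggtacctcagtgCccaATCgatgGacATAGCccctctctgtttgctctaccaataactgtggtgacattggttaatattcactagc
The last 55 bases were identical in all 5, and among 32851 promoters this block occurred only in these 5. It holds the letters GTTAAT, a half-site of the hepatocyte factor HNF1, which on either strand occurred in 7.1% of all promoters of the same length and in 7 of the 18 members'. In Serpina1a to Serpina1e the match lies in the identical block, so these 5 are not independent of each other when set beside the 7.1%. The other 2 were Serpina3c and Serpina7. The half-site ended 72 bases before the RefSeq start in Serpina1e and 10 to 21 bases before it in the other 4, though the span of Serpina1e in GENCODE M21 reaches to base 103958975, upstream of its window. A STAT site, TTCNNNGAA on either strand, occurred in 8.3% of all promoters and in 5 of the 18 members', Serpina11, Serpina1f, Serpina3f, Serpina3g and Serpina3i. Such matches describe the letters of the window and show no binding.

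A pair of neighbours of the antitrypsin genes, singled out after their values were seen because they overlap members, followed the same course. B430119L08Rik, an antisense transcript within Serpina1c, changed by -1.71 in wild type and -1.31 in the knockout (log2, adjusted p = 1.89e-05 and 0.000159, edgeR). Gm8893, a pseudogene inside the span of Serpina1b, changed by -1.90 and -1.70 (adjusted p = 1.16e-05 and 3.58e-05). Both share 50-base windows with each of Serpina1a to Serpina1e, so their counts may not be independent of those genes. Whether counting used strand is not given in the sources used here, so reads of Serpina1c and of its antisense partner cannot be told apart.

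The Serpina3 genes correspond to human alpha-1-antichymotrypsin, and their reactive loops have diverged widely in the mouse. They include 14 rows, 10 of them protein-coding. Their summed level was 11332, 16077 and 14912 CPM in wild type on chow and 5236, 5172 and 5100 CPM on FFC, with 15725, 16424 and 13383 CPM and 7259, 6412 and 9088 CPM in the knockout. Most of that was Serpina3k, a contrapsin that inhibits trypsin-like proteases. Serpina3k stood at 9907, 14533 and 13336 CPM on chow and 4356, 4370 and 4022 CPM on FFC in wild type, and at 14122, 13871 and 11735 CPM and 6186, 5408 and 8087 CPM in the knockout. The diets did not overlap in either genotype, and the log2 change was -1.57 (SE 0.20, adjusted p = 7.33e-05, edgeR) in wild type and -1.01 (SE 0.19, adjusted p = 0.00137) in the knockout. Serpina3m, its closest coding relative in the family at 91.7% identity, starts at the same base and spans it in the annotation. Serpina3m ran at 908, 981 and 1037 CPM on chow and 485, 466 and 591 CPM on FFC in wild type, and at 930, 1444 and 1038 CPM against 495, 525 and 545 CPM in the knockout. The diets again did not overlap, with changes of -0.92 (SE 0.18, adjusted p = 0.00279) and -1.12 (SE 0.18, adjusted p = 0.000487).

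Serpina3n, an inhibitor of granzyme B that rises in the acute phase response, behaved otherwise. It stood at 428, 424 and 411 CPM in wild type on chow and at 344, 305 and 421 CPM on FFC, where the diets overlapped and the change of -0.24 (SE 0.23, adjusted p = 0.514, edgeR) did not pass. In the knockout it stood at 632, 1051 and 517 CPM on chow and at 549, 445 and 386 CPM on FFC, and the change of -0.67 (SE 0.23, adjusted p = 0.0375) passed although the libraries overlapped. That call was lost without replicate 2 on chow, where the change was -0.35 (adjusted p = 0.197), also without replicate 4 or 7 on FFC, with the knockout groups fitted alone (adjusted p = 0.101) and without scaling factors (-0.18, adjusted p = 0.550).

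Serpina3g, which inhibits cysteine cathepsins inside cells and is known from activated T cells and macrophages, was the one member called higher in both genotypes. It stood at 8.11, 11.8 and 12.0 CPM on chow and 16.2, 15.0 and 19.2 CPM on FFC in wild type, and at 11.9, 10.2 and 10.7 CPM and 15.2, 21.7 and 15.7 CPM in the knockout. Every FFC library was above every chow library, with log2 changes of 0.66 (SE 0.21, adjusted p = 0.0423, edgeR) and 0.68 (SE 0.21, adjusted p = 0.0259). The wild-type call was lost with any 1 of its 6 libraries left out, at adjusted p from 0.0565 to 0.180. The knockout call was lost without chow replicate 2, chow replicate 3 or FFC replicate 4, and with its 2 groups fitted alone (adjusted p = 0.0833). With gene length offsets the call was lost in both genotypes, at 0.55 (adjusted p = 0.0750) and 0.56 (adjusted p = 0.0586). The macrophage markers rose in the same libraries, and their part in this result was not tested.

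The remaining Serpina3 rows were scarce. Serpina3i fell from 4.56, 11.3 and 5.41 CPM to 2.11, 1.69 and 2.08 CPM in wild type and from 3.43, 7.03 and 5.27 CPM to 1.89, 1.62 and 2.96 CPM in the knockout. Its log2 changes were -1.86 (SE 0.39, adjusted p = 0.0037, edgeR) and -1.28 (SE 0.38, adjusted p = 0.0212), the second lost without chow replicate 2, FFC replicate 1 or FFC replicate 4, with the knockout groups fitted alone and without scaling factors. Serpina3h, annotated as a transcribed pseudogene, went from 4.37, 8.49 and 6.62 CPM to 1.60, 1.90 and 3.02 CPM in wild type and from 9.31, 8.87 and 1.51 CPM to 2.16, 1.62 and 1.65 CPM in the knockout. Both changes passed, at -1.58 (SE 0.48, adjusted p = 0.0325) and -1.87 (SE 0.49, adjusted p = 0.0101), although chow replicate 3 of the knockout lay below all FFC libraries. The wild-type call was lost without chow replicate 3 or 4 or FFC replicate 2 or 3, and without scaling factors.

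Serpina3c and Serpina3j passed in the knockout. Serpina3c stood at 2.64, 3.52 and 2.37 CPM on chow and 1.33, 0.439 and 1.09 CPM on FFC there, a change of -1.58 (SE 0.47, adjusted p = 0.0194, edgeR) that was lost without FFC replicate 4. In wild type it stood at 1.78, 4.80 and 2.61 CPM on chow and 1.21, 1.19 and 1.26 CPM on FFC, a change of -1.32 with an adjusted p of 0.0556. Serpina3j showed 2.74, 3.47 and 1.12 CPM on chow and 0.929, 0.709 and 0.856 CPM on FFC in the knockout, a change of -1.56 (SE 0.45, adjusted p = 0.0178) that was lost without chow replicate 2 or FFC replicate 4. Its wild-type values were 3.65, 2.53 and 2.76 CPM and 0.871, 1.58 and 1.32 CPM, a change of -1.24 with an adjusted p of 0.0617. Both knockout calls were also lost with the knockout groups fitted alone and without scaling factors, and both genes passed in wild type with DESeq2 (adjusted p = 0.0218 and 0.0241). The difference of diet effects between genotypes did not pass for either gene. Serpina3f, at 5.53 to 14.7 CPM, and Serpina3a and Serpina3b, both at 0 to 1.10 CPM, passed no test in this fit. With GC content and gene length offsets Serpina3f was called lower on FFC in the knockout (-0.86, SE 0.29, adjusted p = 0.0301).

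Both hormone carriers of the family were measured. Serpina6 is corticosteroid-binding globulin. It stood at 447, 545 and 287 CPM in wild type on chow and at 291, 309 and 266 CPM on FFC, and at 398, 611 and 451 CPM and 278, 491 and 363 CPM in the knockout. The diets overlapped in each genotype, and the changes of -0.56 (SE 0.24, adjusted p = 0.124, edgeR) and -0.37 (SE 0.24, adjusted p = 0.273) did not pass. Serpina7 is thyroxine-binding globulin. It stood at 30.5, 65.2 and 74.3 CPM on chow and at 152, 169 and 103 CPM on FFC in wild type, and every FFC library was above every chow library. This rise of 1.32 (SE 0.33, adjusted p = 0.0128), 2.50-fold, was lost without FFC replicate 3, at an adjusted p of 0.0513. The call was also lost with a replicate block (adjusted p = 0.0711). The knockout values were 52.8, 117 and 64.5 CPM on chow and 102, 126 and 85.6 CPM on FFC, which overlapped, and the change of 0.42 (SE 0.32, adjusted p = 0.358) did not pass. Without scaling factors the knockout change was 0.92 and passed (adjusted p = 0.0231). The difference between the diet effects, -0.90 (SE 0.46), had an adjusted p of 0.350, so the genotypes were not shown to differ. Ttr, transthyretin, the other thyroid hormone carrier of the list on that axis, changed by -0.79 in wild type (adjusted p = 0.00587, edgeR). Its knockout change was -0.78 (adjusted p = 0.00436, edgeR), and Ttr is also among the hepatocyte markers. Me1 and Dio1 of that list were called higher in wild type, by 1.06 and 0.96 (adjusted p = 0.00233 and 0.0379, edgeR).

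Among the members that act on coagulation, Serpina10 encodes the protein Z-dependent inhibitor of factor Xa. It stood at 224, 254 and 277 CPM on chow and at 204, 157 and 158 CPM on FFC in wild type, without overlap, and the change of -0.54 (SE 0.28) had an adjusted p of 0.211. In the knockout it went from 295, 630 and 206 CPM to 177, 200 and 177 CPM, and the change of -1.03 (SE 0.29, adjusted p = 0.0144, edgeR) passed. It became -0.47 without chow replicate 2, the highest library, and was lost then, without FFC replicate 1, with the knockout groups fitted alone and without scaling factors. In wild type it passed with those groups fitted alone (adjusted p = 0.0241) and with gene length offsets. Serpina5, protein C inhibitor, which mouse liver makes little of, had no count in wild type on chow and 0.927, 0.263 and 0.587 CPM on FFC. Against a floor of 3 counts over the group its level was at least 11.7-fold higher on FFC (adjusted p = 0.0216). This call was lost without any 1 of the 3 chow libraries or without FFC replicate 2 or 4. In the knockout it stood at 0.343, 0 and 0 CPM on chow and 0.498, 0.405 and 0.132 CPM on FFC and did not pass.

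Serpina11, a secreted serpin whose target is not established, stood at 46.3, 84.1 and 78.3 CPM on chow and at 37.7, 37.4 and 42.7 CPM on FFC in wild type. The change of -0.82 (SE 0.26, adjusted p = 0.0398, edgeR) was lost in 5 of 6 runs that left out 1 library, all but the one without chow replicate 2, and without scaling factors. In the knockout it went from 189, 181 and 84.5 CPM to 49.2, 46.1 and 59.4 CPM, a change of -1.56 (SE 0.27, adjusted p = 0.000649). Serpina11-nc shares 93.1% of its 50-base windows with another gene and is not independent of Serpina11. It stood at 29.8, 44.6 and 47.8 CPM against 24.3, 23.9 and 25.9 CPM in wild type and at 110, 108 and 48.1 CPM against 28.6, 27.4 and 37.5 CPM in the knockout. Its changes were -0.72 (SE 0.26, adjusted p = 0.0639, though 0.0472 with DESeq2) and -1.51 (SE 0.26, adjusted p = 0.000712). Serpina12, the adipokine vaspin, an inhibitor of kallikrein 7, stood at 28.1 to 98.7 CPM on chow and 69.9 to 138 CPM on FFC, with changes of 0.48 (SE 0.37) and 0.60 (SE 0.37) that did not pass; the second passed without the low-count filter or without scaling factors. Serpina9, a serpin of germinal centre B cells, stood at 0.0658 to 4.60 CPM and did not pass either, nor did the pseudogenes Serpina4-ps1 and Serpina3l-ps in this fit.

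**Figure D4:**
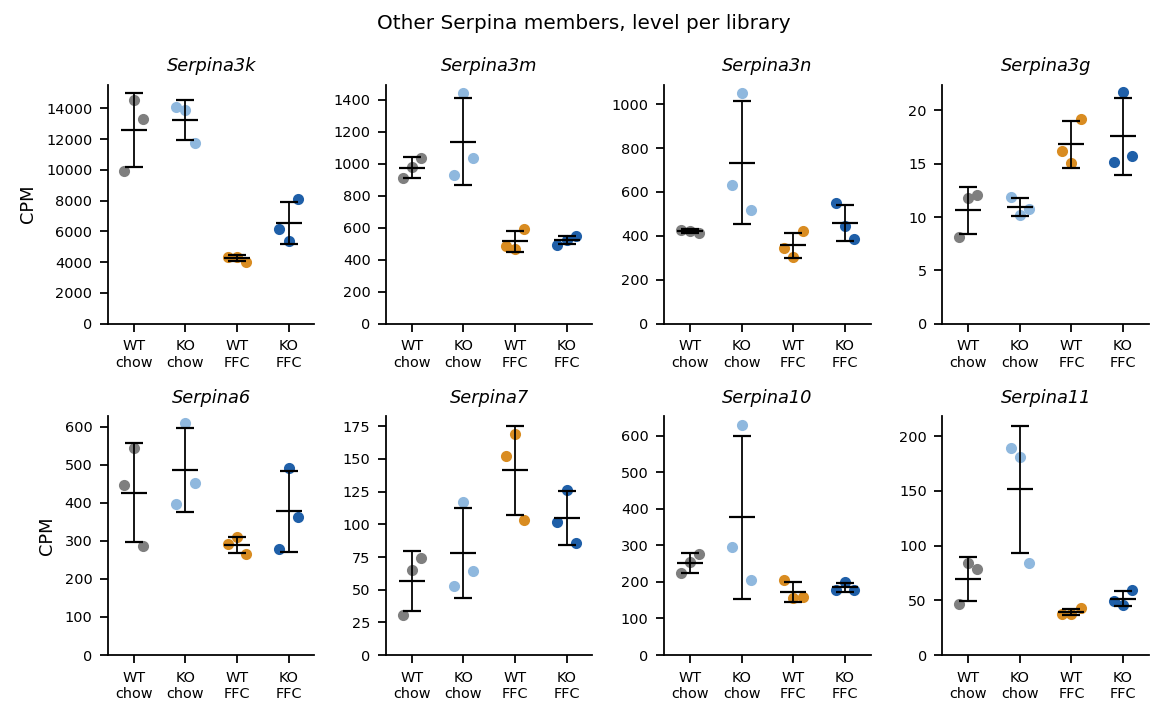
Levels of 8 further members in CPM (y axes, linear from 0, one scale per panel) are plotted by group; points are libraries, and bars are mean and SD of 3. Serpina3k and Serpina3m are lower on FFC in all libraries, Serpina3g is higher on FFC in all libraries, and 1 knockout chow library is highest for Serpina3n (1051 CPM) and Serpina10 (630 CPM).

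On FFC the knockout was compared with wild type to ask whether loss of S1pr1 in myeloid cells altered these transcripts in the diseased liver. No member passed the edgeR test, which called 0.0184% of all tested genes; 6 members and 591 genes had an unadjusted p under 0.05, and DESeq2 called 1 member. Of the 26 members, 17 had a fitted value above 0, with a median of 0.17. The 5 antitrypsin genes were each higher in all 3 knockout libraries than in any wild-type library, among 8 members with this pattern and 1 with the opposite one, where 10.9% of all tested genes were higher without overlap and 10.5% lower. Serpina1c was nearest to the threshold, with a difference of 0.89 (SE 0.17, adjusted p = 0.197, edgeR). DESeq2 called it (0.90, adjusted p = 0.000209), and so did edgeR without the filter on low counts (adjusted p = 0.0114), while its adjusted p over the edgeR runs that left out 1 library was 0.197 to 1.0. The differences of Serpina1a, Serpina1b and Serpina1d were 0.63 (SE 0.17), 0.40 (SE 0.17) and 0.52 (SE 0.18). Serpina1e differed by 1.31 (SE 0.49, adjusted p = 1.0), passed without the filter (SE 0.22, adjusted p = 2.79e-06) and did not pass with DESeq2 (adjusted p = 0.776). Serpina3k differed by 0.63 (SE 0.19, adjusted p = 1.0), also without overlap. Hepatocyte marker sums were higher in the same knockout libraries, 93063 to 109774 CPM against 71456 to 92617 CPM, with 0 of 9 markers called. Most of each sum was Alb, albumin, at 68500, 84500 and 70900 CPM in the knockout and 61100, 50500 and 67400 CPM in wild type. The median marker differed by 0.22, and Cps1 by -0.06. The part of these markers in the Serpina differences was not tested.

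On chow, 3 members were higher in the knockout and none lower, where 4.01% of all tested genes were called higher and 3.27% lower. Without the low-count filter 4 members were higher and 2 lower. The 3 called with the filter were Serpina11 with a difference of 1.12 (SE 0.26, adjusted p = 0.0247, edgeR), Serpina11-nc with 1.12 (SE 0.26, adjusted p = 0.0240) and Serpina3n with 0.80 (SE 0.23, adjusted p = 0.0430). All 3 groups of values, given above, lay without overlap, but knockout replicate 3 was only just above wild type for Serpina11 (84.5 against 84.1 CPM). The 2 Serpina11 calls were lost without wild-type replicate 2 or knockout replicate 1, at adjusted p up to 0.0943. The Serpina3n call was lost without any 1 of the wild-type libraries or without knockout replicate 2, where the difference was 0.48, and without scaling factors. None of the 3 remained when the chow libraries were fitted without the FFC libraries. In the same comparison 4 of 22 acute phase genes were called higher, with summed levels of 32751 to 80256 CPM in the knockout and 24075 to 38856 CPM in wild type. Neutrophil markers summed to 4.94 to 17.2 CPM against 3.50 to 4.59 CPM, with 1 of 4 tested markers called higher and none of 8 at 0 in all libraries. The part of either in the Serpina3n and Serpina11 differences was not tested. The antitrypsin genes had differences of 0.32 to 0.73 and did not pass, though Serpina1b passed with DESeq2 (adjusted p = 0.0466) and Serpina1e without the filter (adjusted p = 0.0216). Of these, Serpina1a to Serpina1d lay without overlap and Serpina1e overlapped. In all, 7 members were higher in the knockout without overlap, where 9.62% of all tested genes were.

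The difference of the diet effects between genotypes passed for no member in edgeR, where 0.0491% of all tested genes passed; 3 members and 2624 genes had an unadjusted p under 0.05, and DESeq2 called 0 members. The lowest adjusted p among members was 0.287, for Serpina5.

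Genes that act with the family were read from lists. Called genes in these lists are read beside the shares over all tested genes, 8.03% lower and 8.76% higher in wild type and 12.8% and 13.7% in the knockout. Of 14 tested proteases and cofactors that these serpins bind, 8 were lower and 1 higher in wild type, with a median of -0.86, and 6 were lower and 1 higher in the knockout, with a median of -0.60. F10, the factor X that Serpina10 acts on once activated, changed by -1.25 in wild type, and Plg, plasminogen, went from 2919 ± 211 to 1377 ± 111 CPM (SD, n = 3). Serpins of other clades showed 5 lower and 2 higher of 15 tested in wild type and 5 lower and 3 higher in the knockout, with medians of -0.58 and -0.48. Among them Serpinf2, alpha-2-antiplasmin, changed by -1.47 and -1.66, and Serpind1, heparin cofactor II, changed by -1.19 in wild type and by -0.48 in the knockout, where it did not pass (adjusted p = 0.0602, edgeR). Acute phase genes, a program that Serpina3n belongs to, had 8 lower and 1 higher of 22 in wild type and 11 lower and 1 higher in the knockout, with medians of -0.55 and -1.05. The gene called higher in wild type was Il1rn, the interleukin-1 receptor antagonist, with a change of 2.04, and Fgb, a fibrinogen chain, fell by 1.23.

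A list of growth hormone and STAT5 genes, which holds the receptor, the STAT5 factors and targets known for sex-dependent liver expression, had 7 of 17 lower in each genotype and 1 higher in wild type, with medians of -0.93 and -0.61. The 1 higher was Stat5a, one of the factors, with a change of 1.63 (adjusted p = 0.00215, edgeR) in wild type. Cyp7b1, an oxysterol hydroxylase of that list, changed by -2.95 in wild type and -1.55 in the knockout, and Mup3, a major urinary protein, by -1.63 in wild type. Glucocorticoid genes, read beside Serpina6, had 1 higher and 1 lower of 9 in wild type and 0 higher and 5 lower in the knockout. Thyroid hormone genes, read beside Serpina7, had 2 higher and 1 lower of 9 in wild type and 1 of each in the knockout. Interleukin-6 and interleukin-1 signalling genes had 2 higher of 14 tested in wild type and 4 higher and 2 lower in the knockout. Hepatocyte transcription factors had 2 higher of 13 in wild type and 1 higher and 3 lower in the knockout. Genes of the secretory pathway, through which serpins leave the cell, had 1 lower of 14 in wild type and 3 lower in the knockout, with a median of -0.17 in both. Counts of 1 or 2 called genes in lists of 9 to 14 are near the shares over all tested genes and do not set those lists apart.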

How the data were processed

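Total RNA from mouse liver was sequenced as paired ends. The deposited table holds raw counts per gene, made by the authors with TopHat 2.1.0 on mm10 and featureCounts 1.4.6 with Ensembl gene definitions, per the labels' protocols and the series' design text; the strand setting and the treatment of reads with several matches are not given in the sources used here. Every row was kept for library totals, and genes passing edgeR's filterByExpr by group (16283) were tested. All 12 libraries, 3 per group, were fitted in one edgeR 4.0.16 quasi-likelihood model (R 4.3.3, TMM scaling, robust), with Benjamini-Hochberg adjustment over all tested genes and a threshold of 0.05. CPM used TMM-scaled totals; levels between genes were compared after division by the deposited gene length.

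Named genes were every family member, plus at most 3 genes per list, those with the lowest p among the ones past the wild-type diet test. The members and lists were chosen with earlier results of these data known, so a list's count is a description. Serpina1 coding sequences were aligned with MAFFT 7.526, and 50-base windows were matched over all GENCODE M21 transcripts. No 2 libraries held identical columns. The alternatives were median-ratio size factors, no filter, the study's RPKM filter, DESeq2 1.42.0, fits of the compared groups alone, a replicate block, length offsets and leaving out each library; fits without scaling factors and with GC and length offsets were added after seeing the data. The test was run on simulated counts first.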

Additional observations from a re-analysis of the deposited data

How the results depend on the processing

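The count of members called between diets in wild type (13) stayed between 9 and 17 in every fit tried, 9 to 13 with 1 library left out. In the knockout the count (16) was 10 with the compared groups alone, 10 with the replicate block, and 11 to 17 with 1 library left out; without scaling factors the 15 lower and 1 higher became 10 lower and 3 higher. Between genotypes on FFC the count (0) was 3 without the low-count filter and 1 with DESeq2. On chow the count (3, all higher) was 6 without the filter (4 higher and 2 lower, the latter Serpina3l-ps and Serpina4-ps1), 0 with the compared groups alone, 0 with the replicate block, and 0 to 4 with 1 library left out, 0 without wild-type replicate 2 and 1 without knockout replicate 1. For the difference of diet effects the count (0) was 2 without the filter, 0 with the replicate block and 0 to 1 with 1 library left out, the 1 being without knockout chow replicate 3. With the block the wild-type diet count was 10 and the FFC genotype count 0. Same-numbered libraries did not deviate together (correlations of -0.124 to 0.09), so the numbers were not taken to pair samples.

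Differences of diet effects changed sign for Serpina10 without knockout chow replicate 2 (0.08, in a range of -0.82 to 0.08 with 1 library left out) and for Serpina3c without knockout FFC replicate 4 (0.09, in a range of -0.76 to 0.09); neither had passed, and the cause was not tested. Without scaling factors the median of all genes moved to 0.465 and 0.566 in the diet comparisons and to -0.137 and -0.199 between genotypes, and with length offsets to -0.185 and -0.189 in the diet comparisons; no called member changed direction there.

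Over all genes, the wild-type diet count (2734) was 4389 without scaling factors, 4137 with the compared groups alone and 1318 to 2490 with 1 library left out. The knockout diet count (4312) was 6609, 2369 and 2765 to 4970 in those fits. The FFC genotype count (3) was 114 without the filter, 17 with the compared groups alone, 14 with the block and 15 with DESeq2. The chow genotype count (1185) was 1917, 14, 183 and 2159 in those fits, 698 with GC and length offsets and 34 to 2551 with 1 library left out. The count for the difference of diet effects (8) was 600 without the filter, 396 with the block, 392 with DESeq2, 59 with length offsets, 0 without scaling factors, 0 with GC and length offsets and 0 to 604 with 1 library left out. With GC and length offsets the diet calls over all genes were 1001 higher and 3058 lower in wild type and 1170 and 3752 in the knockout. On chow the genotype calls, 653 higher and 532 lower, were 286 and 1415 without scaling factors, 913 and 278 with length offsets and 529 and 169 with GC and length offsets. Members near 1 CPM rest on few counts.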

Other observations

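A pair of pseudogenes of the cluster spread widely between libraries of one group. Serpina3l-ps stood at 58.5, 88.2 and 85.2 CPM in wild type on chow, at 1.86, 9.28 and 66.0 CPM in the knockout on chow, at 21.2, 1.11 and 28.8 CPM in wild type on FFC and at 1.16, 0.912 and 39.7 CPM in the knockout on FFC. Low and high libraries thus occurred together in 3 of the 4 groups, although Serpina3k and Serpina3m, whose annotated spans adjoin or contain it, had no such spread. Serpina4-ps1, a pseudogene relative of the human kallistatin gene, stood at 27.0, 30.9 and 71.9 CPM and at 49.5, 15.4 and 4.15 CPM on chow in wild type and knockout, and at 49.2, 25.7 and 11.2 CPM and at 92.4, 27.3 and 59.7 CPM on FFC. Neither passed a test with the low-count filter. Without it edgeR called both, Serpina3l-ps on FFC against chow in wild type (-2.16, adjusted p = 2.26e-20) and the knockout (-0.84, adjusted p = 0.0012) and between genotypes on chow (-1.60, adjusted p = 1.93e-10). Serpina4-ps1 was then called between diets in the knockout (adjusted p = 2.68e-09) and between genotypes on FFC (1.06, adjusted p = 0.000221) and chow (-0.92, adjusted p = 0.00114). Both were also called for the difference of diet effects, at 1.32 (adjusted p = 0.00186) and 1.97 (adjusted p = 3.23e-08). The SE of the wild-type diet change of Serpina3l-ps was 1.71 with the filter and 0.22 without it. Only 0.8% of the 50-base windows of Serpina3l-ps, and 0.0% of those of Serpina4-ps1, occurred in another gene. Serpina9 spread in a like way at a lower level, with 4.60, 0.102 and 0.0658 CPM in the knockout on chow. These genes were singled out after their values were seen.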
